A study of Mus musculus with 15 samples.

Results

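The erythropoietin receptor Epor and 9 genes of its JAK2-STAT5 pathway (Jak2, Stat5a, Stat5b, Cish, Socs2, Socs3, Pim1, Bcl2l1 and Erfe) were described in erythroid progenitors of wildtype and Rpl5 mutant mouse fetal liver. They were taken by gene name from the expected count tables, which list 55487 genes, of which 25113 had a count in any library. The 10 members were all present, and all passed the filter on low counts in both tables. The progenitors came from embryos of strain 129S6/SvEvTac at E12.5, and Rpl5 is the gene of a large-subunit ribosomal protein. The 15 libraries form 5 groups of 3. Group 1 of mice has wildtype and Rpl5 mutant libraries, with the molecule labelled polyA RNA. Group 2 has wildtype, mutant and low-yield mutant libraries, labelled total RNA, and its sample sheet names the genotype of both kinds of mutant Rpl5plusSkax23Jus. The sheet of group 1 gives only WT or M, and no treatment or transgene is named for any group. The label low-yield is not defined, and the number of embryos behind a library is not given in the sources used here, so p values measure the spread between these libraries, which may be partly technical.

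Erythropoietin is the hormone that keeps late erythroid progenitors alive and dividing, and fetal liver is the main site of red cell production at this stage. Its receptor has no enzyme activity of its own: the kinase JAK2, bound to the receptor, phosphorylates it on hormone binding, and the transcription factors STAT5A and STAT5B dock there, are phosphorylated and enter the nucleus. Their reported targets include the feedback inhibitors CISH, SOCS2 and SOCS3, the kinase PIM1, the survival protein BCL-XL (Bcl2l1) and the secreted hormone erythroferrone (Erfe), which lowers hepcidin in the liver and so frees iron for haemoglobin.

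The promoter windows of RefSeq (GRCm38.p6, 250 bases before and 50 after a start) gave 14 windows for 9 of the 10 members, Socs2 being the member without an entry. They were searched for TTCNNNGAA, the core of the element that STAT5 proteins bind, and for AGATAA, an element of GATA factors, the first reading the same on both strands and the second searched on both. The STAT element was present in Cish and Socs3 and in 8.3% of all 32851 windows of 300 bases. In Cish it occurred at positions 1 and 12, counted from 1 at the start base. These copies are shown because they lie side by side, at chr9:107296659-107296678 on the forward strand, with the elements in capitals.

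Cish start: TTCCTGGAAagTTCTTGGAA

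In Socs3 the element was TTCTTAGAA at position -154 from the RefSeq start. It lies within the gene as annotated by GENCODE, which reaches further upstream. The GATA element was present in the windows of Epor and of 1 of the Bcl2l1 starts, and in 11.2% of all windows. The 250 bases before the start of Epor (chr9:21963577-21963826, reverse strand) are shown because Epor was the member called in every comparison with wildtype. The capitals mark AGATAA on the opposite strand, at position -54 from the RefSeq start. That start lies upstream of the gene as annotated by GENCODE, whose end is 21963506.

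Epor promoter: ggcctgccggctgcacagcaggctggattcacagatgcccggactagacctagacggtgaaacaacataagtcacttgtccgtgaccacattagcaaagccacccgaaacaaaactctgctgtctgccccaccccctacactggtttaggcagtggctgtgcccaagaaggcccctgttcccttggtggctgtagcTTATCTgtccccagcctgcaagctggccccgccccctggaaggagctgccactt

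The 250 bases before the start of Erfe (chr1:91366180-91366429, forward strand), the member with the largest fold changes among those called, held neither set of letters and are printed in lower case throughout.

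Erfe promoter: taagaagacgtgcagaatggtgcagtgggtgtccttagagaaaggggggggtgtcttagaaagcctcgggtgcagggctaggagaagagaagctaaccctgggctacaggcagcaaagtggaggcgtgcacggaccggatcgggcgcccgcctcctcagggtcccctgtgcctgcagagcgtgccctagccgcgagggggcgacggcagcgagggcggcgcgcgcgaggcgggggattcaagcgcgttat

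A match describes letters only; binding was not measured.

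Total counts were 48510828 to 58513669 per library in group 1 and 24954324 to 44827821 in group 2, and levels are given below as CPM, a gene's count relative to its library's total after TMM scaling. Rpl5 stood at 656 to 744 CPM in wildtype and 520 to 570 CPM in mutant libraries of group 1. In group 2 it was 303 to 374 CPM in wildtype, 232 to 248 in mutant libraries and 219 to 278 in low-yield libraries, so every mutant library lay below its wildtype group. Of 9 erythroid markers, which included Gata1, Klf1 and the globin genes Hba-a1 and Hbb-bt, none was at 0 in any group. Their summed level was 3297 to 4254 CPM in wildtype and 1974 to 1989 in mutant libraries of group 1, and 3684 to 6677, 2580 to 3000 and 2285 to 3043 CPM in wildtype, mutant and low-yield libraries of group 2. By edgeR, 8, 3 and 5 of the 9 were called lower in the group 1 mutant, group 2 mutant and low-yield mutant, and Gata1 in none of them. DESeq2 and limma-voom called 8, 6 and 7. On leaving out a library the erythroid count was 5 to 8 in group 1 (5 without wildtype library 2 or mutant library 3), 1 to 6 in the group 2 mutant (1 without wildtype library 2 or any mutant library, 6 without wildtype library 1) and 3 to 7 in the low-yield mutant (3 without wildtype library 2 or 3 or low-yield library 1 or 2). Early progenitor markers (5 genes) summed to 487 to 636 CPM in wildtype and 548 to 682 in mutant libraries of group 1. In group 2 they summed to 434 to 591, 581 to 682 and 602 to 724 CPM in wildtype, mutant and low-yield libraries. Both mutants overlapped their wildtype, and the low-yield libraries did not. They were called higher for 1, 2 and 2, with 3 in group 1 with the replicate block, which adds Gata2 and Spi1. In the group 2 mutant the estimate of Spi1 was lower (-0.118). The 1 in group 1, Kit, was lost without wildtype library 1 or 2 or mutant library 3, and the 2 in the group 2 mutant fell to 0 without wildtype library 2 or 3 and to 1 without any of its mutant libraries.

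Granulocyte markers summed to 70.4, 554 and 524 CPM in wildtype libraries 1, 2 and 3 of group 1 and to 192, 1065 and 750 in the mutant ones, with 0 of 7 called by edgeR, DESeq2 or limma-voom, 0 at an unadjusted p below 0.05 and 3 with the replicate block. In group 2 they summed to 13.9 to 25.5 CPM in wildtype, 91.7 to 191 in mutant libraries and 134 to 277 in low-yield libraries, with 4 and 6 of 6 called higher (in the mutant 0 without wildtype library 2, 1 without wildtype library 3 and 2 without mutant library 3 or low-yield library 2). Megakaryocyte markers summed to 15.8 to 29.0 CPM in wildtype and 20.7 to 45.6 in mutant libraries of group 1, and to 11.6 to 14.7, 19.7 to 24.2 and 38.8 to 42.0 in the 3 kinds of group 2. Of them 0, 1 and 4 were called higher by edgeR in the 3 comparisons (2 in group 1 with the replicate block or without mutant library 1, 0 in the group 2 mutant without wildtype library 3, and 2 in the low-yield mutant without any 1 wildtype library). Among the markers called in group 2, the granulocyte gene Lyz2 and the megakaryocyte gene Gp1bb stood at 0.281 and 0.185 CPM in wildtype. They passed the filter there through the mutant kinds, where they are higher.

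Hepatocyte markers (7 genes) summed to 28.9 to 53.8 CPM in wildtype and 4.90 to 17.6 in mutant libraries of group 1, which did not overlap, with all 7 estimates lower. By edgeR 2 of them fell there, Alb, the gene of serum albumin (log2 fold change -2.29, adjusted p = 0.0108; 0.111 with the replicate block), and Serpina1a (-2.56, adjusted p = 0.0453), whose call was lost in 6 of 6 fits without a library; Alb was lost without mutant library 3. In group 2 the hepatocyte sums were 8.26 to 64.6 CPM in wildtype, 7.29 to 40.8 in mutant and 35.2 to 41.3 in low-yield libraries, which overlapped, with 0 of 7 called by edgeR, DESeq2 or limma-voom and 0 at an unadjusted p below 0.05. Endothelial markers (5 genes, 3 tested in each group) summed to 1.97 to 4.06 CPM in wildtype and 3.91 to 9.67 in mutant libraries of group 1, and to 0.809 to 1.87, 3.49 to 5.10 and 6.06 to 9.59 CPM in wildtype, mutant and low-yield libraries of group 2. By edgeR 0, 1 and 3 of the 5 were called higher, Pecam1, an adhesion molecule of endothelium and platelets, rising by 1.79 and 2.58 on the log2 scale in the mutant and low-yield mutant. In group 1 Pecam1 was called with the replicate block (log2 fold change 1.55, adjusted p = 1.75e-05) and without mutant library 1. The endothelial count was 0 in the group 2 mutant without wildtype library 2, and 1 in the low-yield mutant without wildtype library 2 or 3 or low-yield library 2. Kdr and Tek, the other 2 called in the low-yield mutant, stood at 0.159 and 0.0886 CPM in wildtype of group 2 and passed the filter there through the mutant kinds, where they are higher. Cdh5, which encodes the cadherin that defines endothelial junctions, had lower means in the mutants, at 0.269 CPM in wildtype and 0.0729 in mutant libraries of group 1 and 0.277, 0.068 and 0.18 CPM in the 3 kinds of group 2. It was under the filter in each single table, and over both groups its log2 fold change was -1.84 (SE 0.71, edgeR adjusted p = 0.0678). Emcn was at 0 in 3 of the 5 groups. Macrophage markers (7 genes, 4 tested) summed to 1.16 to 6.98 CPM in wildtype and 1.94 to 12.1 in mutant libraries of group 1, and to 0.949 to 4.10, 1.85 to 5.91 and 3.44 to 6.14 CPM in the 3 kinds of group 2, with overlap. By edgeR 0 of them were called in each single comparison with wildtype, and Vcam1, an adhesion molecule, was called higher over both groups (log2 fold change 1.14, adjusted p = 0.0487), a call lost in 9 of 12 fits without a library. Vcam1 was also called higher in group 1 with the replicate block (adjusted p = 0.039). For the low-yield mutant it passed the threshold by DESeq2 (0.04) or without low-yield library 3 (0.0438) or mutant library 1 (0.0466). Adgre1, which encodes the macrophage antigen F4/80, was called higher in the group 2 mutant by DESeq2 (adjusted p = 0.0311) and limma-voom (0.0451). In wildtype of group 2, Adgre1 stood at 0.0316 CPM and Vcam1 at 0.0957. Both passed the filter there through the mutant kinds, where they are higher. At an unadjusted p below 0.05 the counts by edgeR were 0, 1 and 1 in the 3 single comparisons. Lymphoid markers reached at most 0.411 CPM in a library; C1qc was at 0 in 4 of the groups and Cd3e in all 5. The part of these other cells in the results below was not tested. In bulk libraries such as these, fewer cells of a type and less RNA per cell cannot be told apart.

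Compared per kilobase of annotated exon, Epor was the most abundant member in all 5 groups and Socs3 the least. In wildtype, Epor stood at 114 ± 1.698 CPM per kb in group 1 (SD, n = 3) and 147 ± 5.91 in group 2, and no more than 2.87% and 2.05% of the tested genes had a level as high. Jak2, Stat5b, Pim1 and Stat5a formed the next tier, at 16.5 to 28.7 CPM per kb in wildtype of group 1 and 22.3 to 40.5 in group 2. Bcl2l1 and Erfe followed, at 4.63 and 4.52 CPM per kb in group 1, where their libraries overlapped, and at 6.63 and 6.11 in group 2, where they overlapped too. The feedback inhibitors were lowest: Socs2 at 1.16, Cish at 0.889 and Socs3 at 0.448 CPM per kb in wildtype of group 1, and 0.871, 1.44 and 0.572 in group 2. Within the middle tier, Pim1 and Stat5a overlapped in group 1 wildtype, and Jak2 and Stat5a in group 2 wildtype. Socs3 rested on 24 to 96 counts per library, against 5630 to 12979 for Epor. The order within tiers also depends on the length used: with the longest transcript of each gene as its length, Stat5b made up 47.4% of the summed Stat5a and Stat5b level in group 1 wildtype, against 60.5% with all exons.

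**Figure D1:**
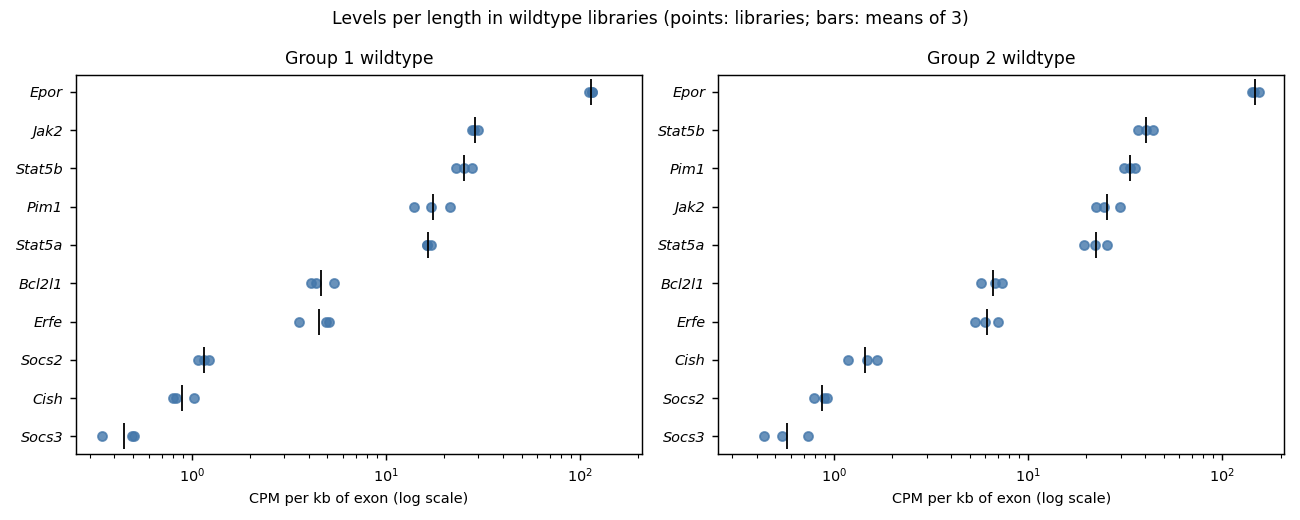
Level of each member in CPM per kb of exon (log scale) in the 3 wildtype libraries of group 1 and of group 2; points are libraries and bars are means. Epor lies at 114 and 147 CPM per kb, apart from all others, and Socs3 is lowest in both.

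The comparisons with wildtype ask how the Rpl5 mutation moves the pathway's transcripts. By edgeR's quasi-likelihood test (Benjamini-Hochberg adjustment over all tested genes, threshold 0.05), 1 of the 10 members was called in the group 1 mutant, Epor, beside 12.57% of all tested genes. In the group 2 mutant 2 were called, Epor and Erfe, beside 6.27% of genes. In the low-yield mutant 3 were called, Epor, Stat5b and Erfe, beside 12.54%. In the fit over both groups, which has a term for the group of mice, Epor, Stat5b and Erfe were called, beside 19.61%. Every member called in these fits was lower in the mutant. In group 1, whose same-numbered libraries deviated together, the fit with the replicate block (a term for the shared number) called 4 of the 10, Epor, Stat5b and Erfe lower and Pim1 higher, beside 20.38% of genes. The members' median log2 fold change was -0.10 in the group 1 mutant, -0.08 in the group 2 mutant, -0.15 in the low-yield mutant and -0.13 over both groups, beside medians over all tested genes of 0.01, -0.01, 0.00 and 0.00. The libraries of mutant and wildtype did not overlap for 3 members in group 1 (Epor, Jak2 and Erfe; 31.61% of all tested genes) and for 3 in the group 2 mutant (Epor, Stat5b and Erfe; 23.24% of genes). For the low-yield mutant this held for 6 members, with Epor, Jak2, Stat5b, Bcl2l1 and Erfe lower and Cish higher, beside 29.89% of genes. The group 2 mutant and low-yield comparisons share their 3 wildtype libraries, and the fit over both groups reuses the libraries of the single ones.

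**Figure D2:**
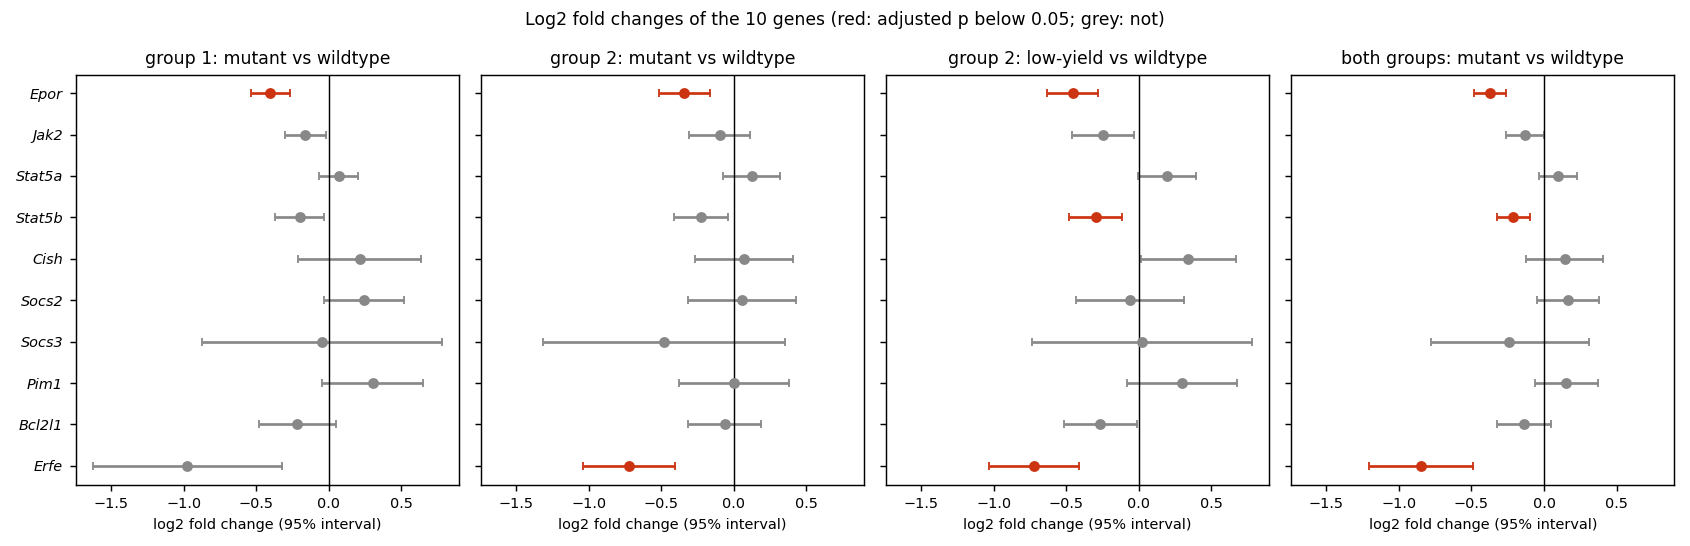
Log2 fold change of each member against wildtype with its 95% interval, in 4 panels for the group 1 mutant, the group 2 mutant, the low-yield mutant and the mutant over both groups; red marks an edgeR adjusted p below 0.05. Epor is red in all 4 panels, Erfe in 3 and Stat5b in 2, all to the left of 0.

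Epor (ENSMUSG00000006235; chromosome 9, 21958897 to 21963506, reverse strand, GRCm38), the receptor itself, was lower in every mutant library than in every wildtype library of its group. In group 1 its CPM was 228, 228 and 222 in wildtype and 183, 166 and 164 in mutant libraries. Epor fell by 24.3% there (log2 fold change -0.40, SE 0.06, edgeR adjusted p = 0.00188). The wildtype libraries lay within 6 CPM of each other, and the gap to the highest mutant library was several times wider.

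In group 2, Epor stood at 289, 306 and 284 CPM in wildtype, 234, 217 and 243 in mutant libraries and 203, 202 and 236 in low-yield libraries. It fell by 21.1% in the mutant (log2 fold change -0.34, SE 0.08, edgeR adjusted p = 0.023) and fell by 27.0% in the low-yield mutant (-0.46, SE 0.08, adjusted p = 0.00232). Both mutant kinds lay below all wildtype libraries and overlapped each other. Over both groups the log2 fold change was -0.37 (95% interval -0.48 to -0.26, edgeR adjusted p = 5.62e-05), and all 6 mutant libraries were lower than the wildtype libraries of their group. The call in the group 2 mutant was lost without wildtype library 2 (edgeR adjusted p = 0.107), mutant library 1 (0.0788), mutant library 2 (0.0694) or mutant library 3 (0.0583), with log2 fold changes between -0.38 and -0.30. The summed erythroid markers moved the same way as Epor in each comparison, and their part in its change was not tested.

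**Figure D3:**
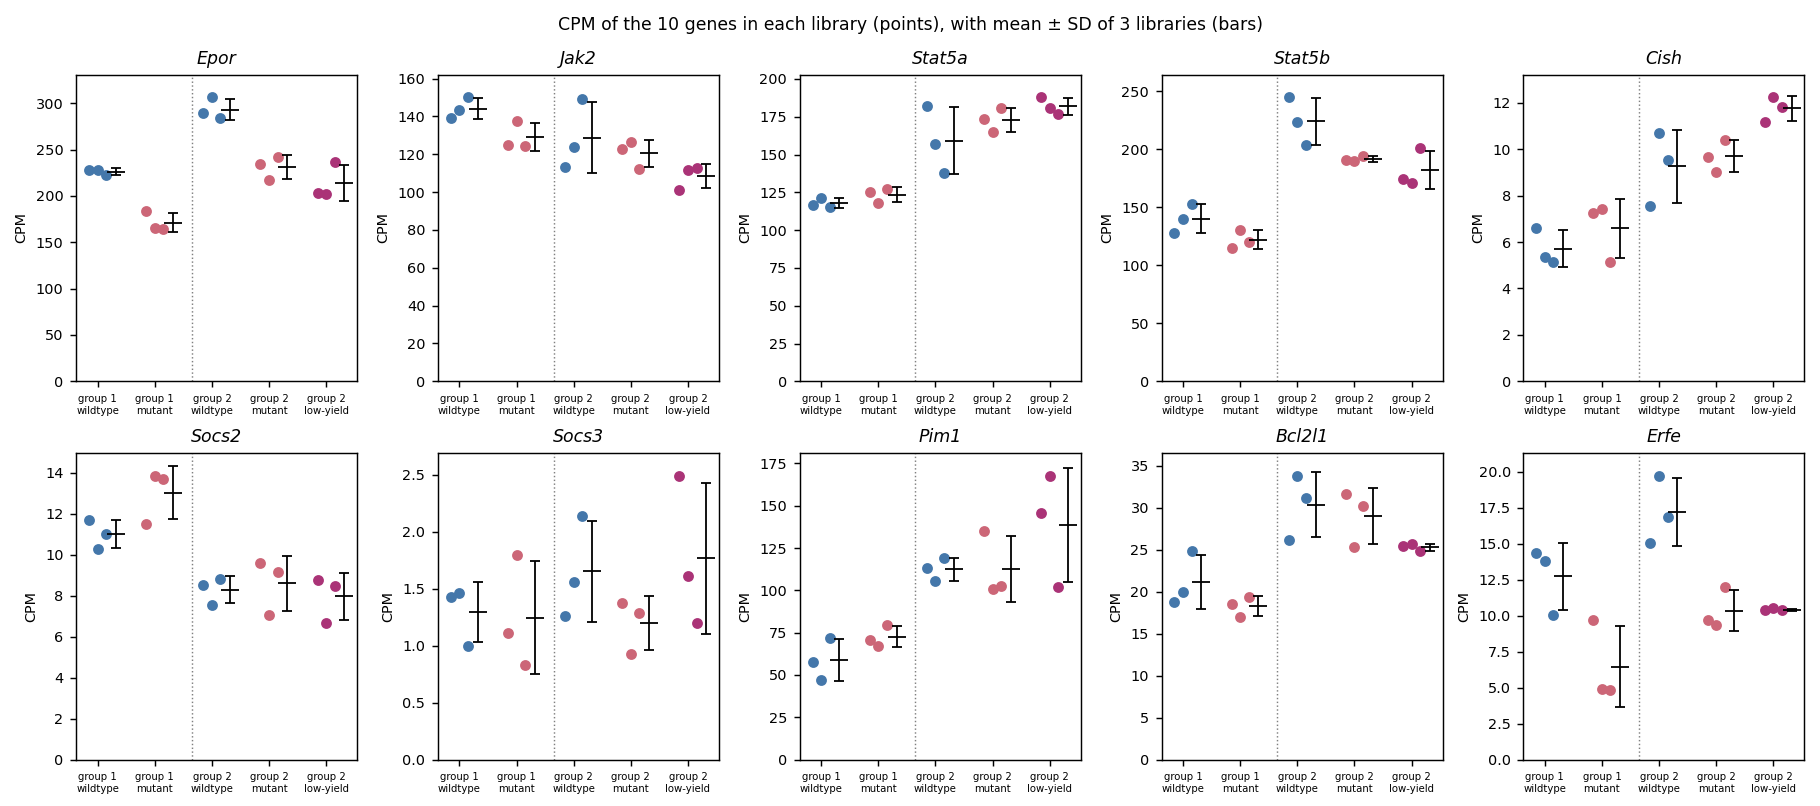
CPM of the 10 members in each of the 15 libraries, 1 panel per member with its own axis from 0; points are libraries and the bars beside them mean ± SD of 3, and the dotted line parts the groups of mice. The mutant points of Epor lie below the wildtype points on both sides of the line, while those of Stat5a, Socs2 and Socs3 overlap them.

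Jak2 (ENSMUSG00000024789; chromosome 19, 29251828 to 29313080), the kinase that the receptor carries, was not called in any comparison with all libraries in edgeR. In group 1 its CPM was 139, 143 and 150 in wildtype and 125, 138 and 125 in mutant libraries, which did not overlap (log2 fold change -0.16, SE 0.07, edgeR adjusted p = 0.13). In group 2 it was 113, 124 and 149 CPM in wildtype, 123, 126 and 112 in mutant libraries and 101, 112 and 113 in low-yield libraries. The wildtype libraries of group 2 spread widely, across the mutant ones, and the low-yield libraries lay at or under the lowest of them. The log2 fold changes there were -0.10 (95% interval -0.31 to 0.12) for the mutant and -0.25 (-0.46 to -0.03, edgeR adjusted p = 0.123) for the low-yield mutant. Over both groups the interval, -0.26 to 0.00, leaves room for a decrease but not for one as large as the estimate for Epor. Jak2 passed the threshold in group 1 without mutant library 2 (edgeR adjusted p = 0.0495), in the low-yield mutant and over both groups without wildtype library 1 of group 2 (0.0335 and 0.034), and by limma-voom in the last 2 comparisons (0.028 and 0.044).

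The transcription factors Stat5a and Stat5b are neighbours on chromosome 11 (100859351 to 100885169, forward, and 100780731 to 100850724, reverse) and share 265 windows of 100 bases, 3.44% of those of Stat5a and 4.79% of those of Stat5b, so few reads can be split between them. Stat5a also overlaps Stat3 on the other strand, and the use of strand in the counting is not given in the sources used here. Stat5b stood at 128, 140 and 153 CPM in wildtype and 115, 131 and 120 in mutant libraries of group 1. The groups overlapped, and the log2 fold change was -0.20 (SE 0.08, edgeR adjusted p = 0.118; 0.0474 with the replicate block, in the paired fit). In group 2 it was 245, 224 and 204 CPM in wildtype, 191, 190 and 195 in mutant libraries and 175, 171 and 201 in low-yield libraries. All wildtype libraries lay above all mutant ones.

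In the group 2 mutant the log2 fold change of Stat5b was -0.23 (SE 0.09, edgeR adjusted p = 0.147). In the low-yield mutant Stat5b fell by 18.7% (log2 fold change -0.30, SE 0.09, adjusted p = 0.0355). This call was lost without wildtype library 1 (0.101) or 2 (0.0999), mutant library 1 (0.0528) or 3 (0.0583), or low-yield library 1 (0.173) or 2 (0.188), and in a fit of only the 6 compared libraries (0.0652). Over both groups it fell by 13.7% (log2 fold change -0.21, SE 0.06, edgeR adjusted p = 0.00958), a smaller change than that of Epor with intervals that overlap (-0.33 to -0.10 and -0.48 to -0.26).

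Stat5a was not called in any comparison with all libraries in edgeR. Its CPM was 116, 121 and 116 in wildtype and 125, 118 and 127 in mutant libraries of group 1, and in group 2 it was 182, 157 and 138 CPM in wildtype, 173, 165 and 181 CPM in mutant libraries and 188, 181 and 177 CPM in low-yield libraries, with overlap throughout. Its log2 fold changes were 0.07 (95% interval -0.07 to 0.20), 0.12 (-0.08 to 0.32) and 0.19 (0.00 to 0.39), and 0.10 over both groups (-0.03 to 0.23). In the low-yield mutant it passed the threshold without wildtype library 1 (edgeR adjusted p = 0.024) and by limma-voom (0.0242). The estimates for Stat5a and Stat5b had opposite signs in each comparison with wildtype. As a description made after the values were seen, the share of Stat5b in the summed Stat5a and Stat5b level per kb was 60.5% ± 2.32 in wildtype and 56.0% ± 2.51 in mutant libraries of group 1 (SD, n = 3). It was 64.6% ± 1.10 in wildtype, 58.8% ± 0.805 in mutant and 56.3% ± 2.72 in low-yield libraries of group 2. In group 1 the share was lower in the mutant in all 3 same-numbered pairs (54.2% against 58.5%, 58.9% against 59.8% and 54.9% against 63.0%), although the highest mutant library exceeded the lowest wildtype one. In group 2 the highest mutant (59.7%) and low-yield (59.4%) libraries lay under the lowest wildtype library (63.4%).

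**Figure D4:**
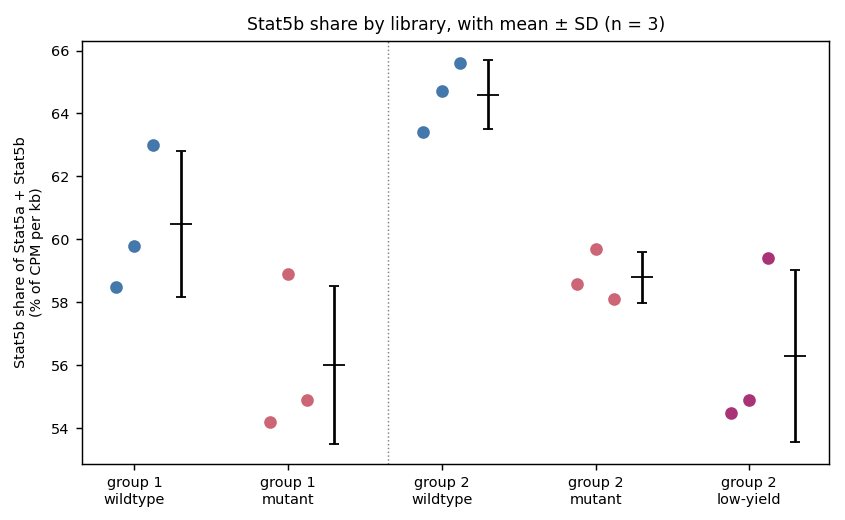
Share of Stat5b in the summed Stat5a and Stat5b level (percent of CPM per kb of exon) in each library, with mean ± SD of 3; the axis does not start at 0. Mutant and low-yield libraries of group 2 lie between 54.5% and 59.7%, below its wildtype libraries at 63.4% to 65.6%.

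The feedback inhibitors Cish, Socs2 and Socs3, which bind the activated receptor or kinase and dampen the signal, were not called in any comparison. Cish (chromosome 9, 107296026 to 107302784), whose start carries the paired elements shown above, stood at 6.61, 5.34 and 5.16 CPM in wildtype and 7.25, 7.42 and 5.14 in mutant libraries of group 1. In group 2 it stood at 7.56, 10.7 and 9.51 CPM in wildtype, 9.68, 9.03 and 10.4 in mutant libraries and 11.2, 12.2 and 11.8 in low-yield libraries. The low-yield libraries lay above all other libraries of group 2 (log2 fold change against wildtype 0.34, 95% interval 0.01 to 0.67, edgeR adjusted p = 0.171). In the mutants the changes were 0.21 (-0.21 to 0.63) in group 1 and 0.07 (-0.27 to 0.41) in group 2. The annotated genes Gm17040 and Gm17041 overlap Cish on the other strand, and its counts may include their reads.

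Socs2 stood at 10.3 to 11.7 CPM in wildtype and 11.5 to 13.9 in mutant libraries of group 1, and at 7.57 to 8.82, 7.07 to 9.61 and 6.67 to 8.76 CPM in the 3 kinds of group 2. All these ranges overlapped within a group of mice. Its log2 fold changes were 0.24 (95% interval -0.04 to 0.52), 0.06 (-0.32 to 0.43) and -0.06 (-0.43 to 0.31). Socs3, at 0.830 to 2.49 CPM over all libraries, had the widest intervals: -0.87 to 0.78, -1.32 to 0.36 and -0.74 to 0.78. They leave room for changes of Socs3 in either direction.

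Pim1 (chromosome 17, 29490753 to 29496112) encodes a serine/threonine kinase that promotes survival and growth. Its CPM was 57.7, 47.2 and 71.6 in wildtype and 70.9, 67.4 and 79.5 in mutant libraries of group 1, which overlapped. The log2 fold change was 0.30 (SE 0.15, edgeR adjusted p = 0.24), and 0.32 with an adjusted p of 0.00588 with the replicate block. Without wildtype library 3 it was 0.47 (edgeR adjusted p = 0.0289). In group 2 it stood at 113, 105 and 119 CPM in wildtype, 135, 101 and 103 in mutant libraries and 146, 168 and 102 in low-yield libraries. The low-yield libraries spread across the wildtype ones, with a log2 fold change of 0.30 (SE 0.17, edgeR adjusted p = 0.306; 0.0178 without low-yield library 3), and the mutant had 0.00 (95% interval -0.38 to 0.38). Pim1 overlaps the antisense gene Gm26885.

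Bcl2l1 (chromosome 2, 152780668 to 152831728), whose product BCL-XL protects erythroid cells from death, was not called by edgeR either. In group 1 its CPM was 18.8, 19.9 and 24.9 in wildtype and 18.6, 16.9 and 19.4 in mutant libraries (log2 fold change -0.22, 95% interval -0.48 to 0.05). In group 2 it was 26.2, 33.9 and 31.1 CPM in wildtype, 31.6, 25.3 and 30.2 in mutant libraries and 25.4, 25.7 and 24.8 in low-yield libraries. The low-yield libraries lay close together just under the lowest wildtype library (-0.27, 95% interval -0.52 to -0.01, edgeR adjusted p = 0.166, limma-voom 0.0253), while the mutant overlapped wildtype (-0.06, -0.32 to 0.19).

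Erfe (ENSMUSG00000047443; chromosome 1, 91366430 to 91374217, forward strand), the iron-regulating hormone, had the largest decrease of the members by estimate in each comparison with wildtype. In group 1 its CPM was 14.4, 13.8 and 10.02 in wildtype and 9.68, 4.92 and 4.80 in mutant libraries. The groups did not overlap, but mutant library 1 lay just under the lowest wildtype library. The log2 fold change was -0.97 (SE 0.28), with an edgeR adjusted p of 0.0611, above the threshold. With the replicate block it was -1.01 (0.000205), by DESeq2 -0.97 (0.00297), by limma-voom with quality weights -1.12 (0.0165), and without mutant library 1 by edgeR -1.38 (0.00167). That library also had the lowest granulocyte marker sum of the group 1 mutants, 192 CPM, and its erythroid marker sum, 1974 CPM, lay beside the other mutants. These values are from 1 library, and whether they bear on Erfe was not tested.

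In group 2, Erfe stood at 15.02, 19.7 and 16.9 CPM in wildtype, 9.71, 9.34 and 11.98 in mutant libraries and 10.4, 10.5 and 10.4 in low-yield libraries. Erfe fell by 39.4% in the mutant (log2 fold change -0.72, SE 0.15, edgeR adjusted p = 0.00959) and fell by 39.5% in the low-yield mutant (-0.72, SE 0.15, adjusted p = 0.0048), and the wildtype libraries lay above both. The mutant call was lost without wildtype library 2 (edgeR adjusted p = 0.0571) or mutant library 1 (0.0527). Over both groups Erfe fell by 44.4% (-0.85, 95% interval -1.21 to -0.49, edgeR adjusted p = 0.0021), lower in 6 of 6 mutant libraries than in the wildtype libraries of their group. Erfe overlaps Ilkap on the other strand.

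Within group 2, the low-yield libraries were also set against the other mutant libraries directly. By edgeR 0 members and 0% of all tested genes were called, with 0 members and 480 genes at an unadjusted p below 0.05; DESeq2 called 6 genes and limma-voom 0, none of them members. The log2 fold changes of Epor, Stat5b and Erfe were -0.11 (95% interval -0.29 to 0.06), -0.07 (-0.26 to 0.11) and 0.00 (-0.33 to 0.33). Low-yield and mutant libraries did not overlap for 1 of the 10 members, Cish (0.27, -0.06 to 0.60), beside 8.214% of all tested genes, which is close to that share. Whether the genotype effect differed between the groups of mice was tested by the interaction, in which 0 members and 0.0188% of genes were called (0 members at an unadjusted p below 0.05, and 0 by DESeq2 or limma-voom). The differences of log2 fold change, group 2 minus group 1, were 0.08 (-0.15 to 0.31) for Epor, -0.01 (-0.25 to 0.23) for Stat5b and 0.27 (-0.47 to 1.01) for Erfe. Kind of RNA and group of mice cannot be told apart in it.

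Other genes of the pathway are given as counts from lists that were drawn up with earlier results of these data known, and the share of all genes called, given above for each comparison, is their background. Of 24 genes that act close to the receptor (adaptors, phosphatases, ubiquitin ligases and lipid-signalling enzymes), 5 were called higher and 4 lower in the group 1 mutant, 2 and 1 in the group 2 mutant, 3 and 4 in the low-yield mutant, and 7 and 4 over both groups by edgeR. With the replicate block 7 and 4 were called in group 1, Plcg1 (log2 fold change 0.42, adjusted p = 0.0122) and Plcg2 (0.63, 0.000456) being added. Limma-voom called 5 higher and 3 lower in the group 2 mutant, and 9 and 6 in the low-yield mutant. Their median log2 fold changes were 0.11, 0.04, 0.07 and 0.07, beside 0.01, -0.01, 0.00 and 0.00 for all genes. Lyn, a SRC-family kinase that associates with the receptor, rose in each comparison with wildtype, from 25.6 to 41.1 CPM in group 1 (log2 fold change 0.68, SE 0.10) and from 24.4 to 34.4 and 37.3 CPM in the mutant and low-yield libraries of group 2 (0.50 and 0.61, SE 0.11 both). Ptpn11, the phosphatase SHP2, fell in each (-0.27, -0.32 and -0.30), and over both groups both genes were called in 12 of 12 fits without a library. Gab1, a docking protein, fell in the group 1 mutant and the low-yield mutant (-0.44 in both). Plcg2, a phospholipase, rose in both mutant kinds of group 2 (0.86 and 1.16). On leaving out a library, the count of 9 in group 1 ranged from 3 to 11 (3 without wildtype library 2, 4 without mutant library 3). The count of 7 in the low-yield mutant ranged from 3 to 13 (3 without low-yield library 1, 4 without low-yield library 2 or wildtype library 2, 13 without wildtype library 1). In the group 2 mutant the count of 3 ranged from 0 to 5 (0 without wildtype library 2 or mutant library 3, 1 without wildtype library 3 or mutant library 1, 5 without wildtype library 1): the call of Lyn was lost without wildtype library 2 or 3 or mutant library 1 or 3, that of Ptpn11 without wildtype library 2 or mutant library 1 or 3, and that of Plcg2 without wildtype library 2 or 3 or mutant library 2 or 3. Ptpn11 was also not called without wildtype library 2 or mutant library 3 in group 1, nor in the low-yield mutant without wildtype library 2 or low-yield library 1 or 2, and Gab1 not in the low-yield mutant without low-yield library 1 (highest edgeR adjusted p over these fits 0.106).

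Of 15 relatives of the members (other JAK, STAT, SOCS and PIM genes), all 15 were tested in group 1 and 14 in group 2. In the group 1 mutant 1 was called, Pim2, a further PIM kinase, which rose from 4.88 to 9.07 CPM (log2 fold change 0.90, SE 0.21, edgeR adjusted p = 0.0182), a call kept in 2 of 6 fits without a library (those without wildtype library 1 or mutant library 1). With the replicate block Jak3, the kinase of the shared lymphoid receptor chain, was called there too (log2 fold change -0.33, adjusted p = 0.0355). In the group 2 mutant 0 were called by edgeR or DESeq2 and 1 by limma-voom, with 2 at an unadjusted p below 0.05. In the low-yield mutant Jak1 fell (-0.25, SE 0.08, edgeR adjusted p = 0.0493), a call kept in 1 of 9 fits without a library; limma-voom called 2 genes. Over both groups Pim2 rose (0.71, called in 12 of 12 fits without a library) and Jak3 fell (-0.33, in 9 of 12). The medians were 0.07, -0.01, 0.04 and 0.05.

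Among 12 other cytokine receptor genes, 10 were tested, Ghr and Prlr being below the filter, and all 10 had a higher estimate in the mutant in each comparison with wildtype, with medians of 0.43, 0.47 and 0.73 against the decrease of Epor. By edgeR 2 were called in the group 1 mutant (4 with the replicate block), 1 in the group 2 mutant (3 by DESeq2, 2 by limma-voom) and 5 in the low-yield mutant, all higher. Kit, the stem cell factor receptor that works beside Epor in early erythroid progenitors, rose in each, from 161 to 198 CPM in group 1 (log2 fold change 0.30, SE 0.07) and from 179 to 247 and 257 CPM in group 2 (0.47 and 0.52, SE 0.10 both). Il2rg, the shared chain of lymphoid cytokine receptors, rose in the group 1 mutant (0.40) and the low-yield mutant (0.66). Csf3r, the receptor of granulocyte colony-stimulating factor, rose in the low-yield mutant from 0.126 to 1.21 CPM. In group 2 it passed the filter through the mutant kinds, where it is higher. Its rise there, which is counted among the 5 calls and the 10 higher estimates, is therefore not independent of the filter. Csf3r was also called in group 1 with the replicate block (log2 fold change 0.85, adjusted p = 0.0331). Kit is also in the early progenitor list, and the granulocyte marker sums given above moved with Csf3r; the part of other cells was not tested. Kit was called over both groups in 12 of 12 fits without a library (log2 fold change 0.38), and in the low-yield mutant in 9 of 9. It was not called without wildtype library 1 or 2 or mutant library 3 in group 1, nor without wildtype library 2 or 3 or mutant library 2 in the group 2 mutant (highest edgeR adjusted p 0.0643). Il2rg in group 1 was called only in the fit without mutant library 2, of 6 such fits (highest 0.196), and Csf3r not without wildtype library 2 (0.0508).

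**Figure D5:**
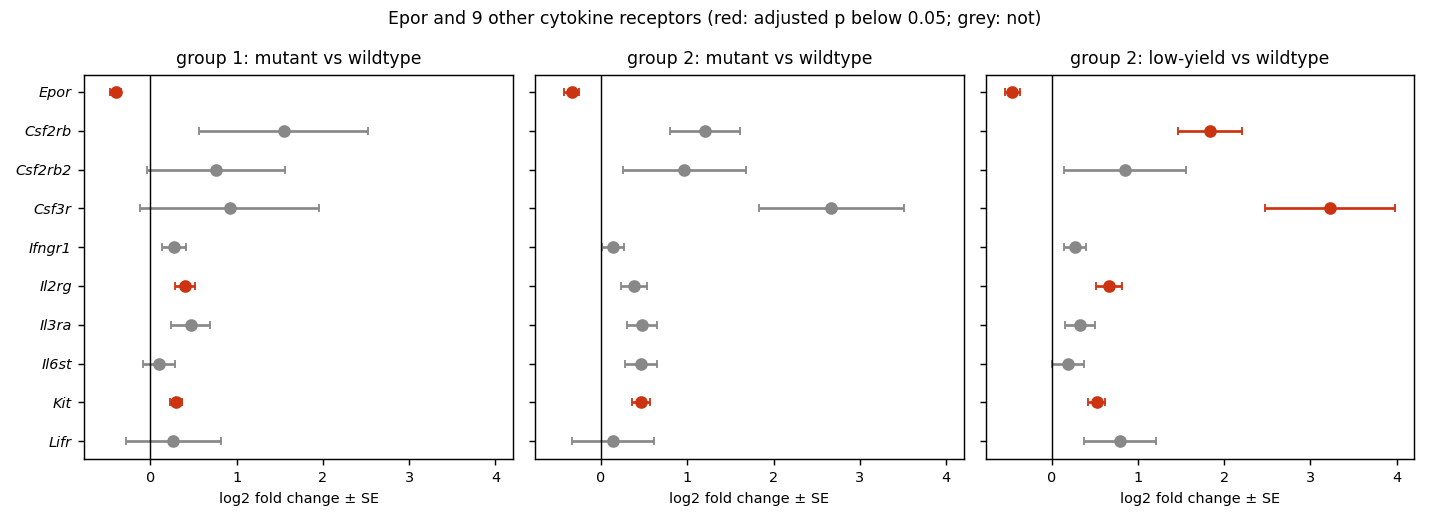
Log2 fold change ± SE of Epor and of 9 of the 10 other cytokine receptor genes tested, against wildtype, in the group 1 mutant, the group 2 mutant and the low-yield mutant; red marks an edgeR adjusted p below 0.05. Epor lies left of 0 in every panel, and the 9 others lie right of it.

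Of 17 further genes reported to respond to erythropoietin or STAT5, 16 were tested in group 1 and 14 in group 2. By edgeR 4 were called higher and 2 lower in the group 1 mutant, and 2 higher and 1 lower in each mutant kind of group 2, with medians of 0.02, -0.08 and 0.02. In the group 1 mutant 3 were called without wildtype library 2 or 3. In the low-yield mutant 6 were called without mutant library 2, and limma-voom called 5 in each mutant kind of group 2. Bcl2 and Podxl, called higher in group 1, were each lost in 4 of 6 fits without a library. Ccnd2, the cell cycle protein cyclin D2, rose in each (log2 fold changes 0.86, 0.74 and 0.82; SE 0.07, 0.13 and 0.13), while Ccnd3, cyclin D3, which drives divisions of maturing erythroid cells, fell in each (-0.48, -0.54 and -0.58; SE 0.09, 0.10 and 0.10). Cdkn1a, which is better known as a target of p53, rose most, from 2.16 to 30.5 CPM in group 1 (3.80, SE 0.20). Tfrc, the transferrin receptor, fell in the group 1 mutant (-0.36, SE 0.08, edgeR adjusted p = 0.0146). The calls of Ccnd2, Ccnd3 and Cdkn1a held in every fit without a library in each of these comparisons, and that of Tfrc was lost without wildtype library 2 or 3 or mutant library 3 (highest 0.101).

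In the BCL2 family around Bcl2l1 (18 genes, 13 tested in each group), 3 were called higher and 1 lower in the group 1 mutant, 2 and 2 in the group 2 mutant and 1 and 2 in the low-yield mutant by edgeR, with medians of 0.15, 0.20 and 0.27. The replicate block added Pmaip1, which encodes the death-promoting protein NOXA, in group 1 (log2 fold change 1.02, adjusted p = 0.0147), and limma-voom called 5 genes in the low-yield mutant. On leaving out a library the count of 4 in group 1 fell to 2 without wildtype library 2, and that of 4 in the group 2 mutant to 1 without wildtype library 2 or 3 or mutant library 3 and to 2 without mutant library 1 or low-yield library 1 or 2. Bbc3, which encodes the death-promoting protein PUMA, rose in each, from 5.49 to 12.2 CPM in group 1 and from 6.75 to 16.3 and 11.6 CPM in group 2 (log2 fold changes 1.15, 1.27 and 0.77). Bax, a pore-forming member, rose in the group 1 and group 2 mutants (0.54 and 0.40). Bcl2l11, which encodes BIM, fell in each (-0.52, -0.53 and -0.80; SE 0.10, 0.12 and 0.13), and Bad fell in both kinds of group 2 mutant (-0.42 and -0.40). Both BIM and BAD also promote death, so called genes of like role moved in opposite directions. Over both groups the calls of all 4 genes held in 12 of 12 fits without a library. In the single comparisons, Bbc3 in group 1 was lost without wildtype library 2 (0.0512), Bcl2l11 in the group 2 mutant without wildtype library 2 or 3 or mutant library 1 or 3 (highest 0.0983), Bax in the group 2 mutant in 6 of 9 such fits (0.199) and Bad in 8 of 9 in the mutant (0.135) and 6 of 9 in the low-yield mutant (0.148).

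The genes whose pattern over the 15 libraries was most like that of a called member were found by the root mean square difference of log2 CPM, centred within each group of mice, over 13369 other genes tested in both groups. For Epor they were Wipi2 (difference 0.05, where Epor itself varied by 0.21) and Ap2a1 (0.06). For Stat5b they were Aldh16a1 (0.04, against a variation of 0.15) and Gatd3a (0.06), and for Erfe Bicd1 (0.21, against 0.49) and Slc66a2 (0.22). Wipi2 had log2 fold changes of -0.43, -0.37 and -0.41 in the group 1 mutant, group 2 mutant and low-yield mutant, beside -0.40, -0.34 and -0.46 for Epor. Because Wipi2 was chosen for likeness over these same libraries, near fold changes follow from the choice. The likeness for Erfe was looser, with a difference that was a larger part of its own variation than for Epor.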

How the data were processed

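RNA-seq of 15 fetal liver progenitor libraries was analysed from the expected counts per gene that the authors deposited, 1 table for each group of mice. Per the labels, RNA was extracted with RNeasy Micro and read as 151 bp paired ends on a NovaSeq. The submitters' processing notes name cutadapt 2.3, FastQC 0.11.8, STAR 2.7.8a, RSEM 1.3.3, MultiQC 1.7 and GRCm38; the annotation release and use of strand are not given in the sources used here. The expected counts were whole numbers as deposited, so rounding changed nothing. Rows of 5 reporter sequences held 5 counts in all and were left out.

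All genes past the filterByExpr filter were tested (edgeR 4.0.16, R 4.3.3, TMM, robust quasi-likelihood fit, two-sided, Benjamini-Hochberg over all tested genes, threshold 0.05); a gene past it is called. The group 1 fit used 6 libraries, the 3 comparisons of group 2 shared 9, and the fits over both groups used 12. The script was tested on simulated data. Lengths and positions came from GENCODE M21 (GRCm38), promoters from RefSeq. Alternatives were DESeq2 1.42.0, limma-voom (limma 3.58.1), RLE size factors, other filters, a replicate block and leaving out each library. Same-numbered mutant and wildtype libraries of group 1 deviated together (r 0.146 to 0.441 in all 3 pairs), so the paired values stand beside its results where they change a call. Wildtype library 3 and mutant library 2, which differ in number, deviated together as well (r 0.23). The labels give only the number, so the pairing is not established. No libraries were duplicates (chi-square per degree of freedom 18.5 to 69.6). Biological coefficients of variation were 22.4% (group 1) and 19.9% (group 2).

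All members were named. From each pathway list at most 4 genes were named, among those called in a comparison; Plcg1, Pmaip1, Bcl2, Podxl and the marker genes were added after their values were seen; for called members the 2 most similar genes were named. The members, lists and tests were chosen with earlier results of these data known. The values of 1 gene of the receptor list are not reported here.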

Additional observations from a re-analysis of the deposited data

How the results depend on the processing

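Of 1014 member fold changes under other settings, 953 kept their direction and side of the threshold, 16 gained a call, 13 lost one and 32 changed sign, the last only for estimates not called. Leaving out 1 library gave 1 to 2 called members in the group 1 mutant (753 to 1729 genes in all), 0 to 2 in the group 2 mutant (425 to 1323 genes) and 2 to 4 in the low-yield mutant (900 to 2395 genes); between low-yield and other mutants it gave 0 to 22 genes. The group 2 mutant had 0 called members without wildtype library 2 or mutant library 1. DESeq2 and limma-voom each called 2 members in the group 1 mutant, limma-voom called 6 in the low-yield mutant (adding Jak2, Stat5a and Bcl2l1) and 2000 and 3399 genes in the 2 mutant kinds of group 2, and DESeq2 called 1452 genes in the group 2 mutant, 6 between its mutants and 13 in the interaction. The cause was not tested.

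With the replicate block (paired fit), 4 members and 2863 genes were called in the group 1 mutant and 5 genes in the interaction. In group 2 same-numbered libraries did not deviate together in every pair (r 0.0245 to 0.241 for mutant and wildtype, -0.0681 to 0.0836 for low-yield and wildtype). The labels give only the number, and whether these libraries are pairs is not settled by the values. The block gave 1309 and 2331 genes and changed no member's call there. Pim1 in the group 2 mutant went from 0.002 to -0.012 with the block and to -0.002 by limma-voom. Erfe between low-yield and other mutants was 0.006 by DESeq2, 0.010 with a mean CPM of at least 5, 0.009 with the legacy quasi-likelihood and 0.001 with the block, and Stat5b in the interaction 0.029 by limma-voom.

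Sign changes on leaving out a library were, in log2 fold change: in the group 2 mutant, Bcl2l1 -0.148 to 0.024, Cish -0.039 to 0.178, Jak2 -0.175 to 0.024, Pim1 -0.140 to 0.077 and Socs2 -0.013 to 0.171; in the low-yield mutant, Socs2 -0.122 to 0.056 and Socs3 -0.289 to 0.279; in the group 1 mutant, Socs3 -0.407 to 0.182; between low-yield and other mutants, Erfe -0.066 to 0.130; in the interaction, Jak2 -0.036 to 0.167, Stat5a -0.055 to 0.151 and Stat5b -0.106 to 0.034. Of 40 member levels per kb recomputed with another length or scaling, 12 moved by more than 1 SD. Depth limits Socs3 most, and 3 libraries a group limit every comparison.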
